A study of Rattus norvegicus with 4 samples.

Results

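Semaphorins, plexins, ephrins, Eph receptors, Slits, Robo receptors, netrins and Unc5 receptors were followed through the nuclei of rat hearts. They were taken as the genes whose symbols begin with the names of these 8 families, and 65 of the 32623 genes of the deposited table qualified. The set held 20 semaphorins, 9 plexins, 8 ephrins, 13 Eph receptors, 3 Slits, 4 Robo receptors, 4 netrins and 4 Unc5 receptors. Of these, 57 had at least 30 UMIs (unique molecular identifiers, each standing for 1 captured RNA molecule) over all nuclei of a named class and were compared. The other 8 were Robo3, Robo4, Ntn3, Ntn5, Unc5a, Efna3, Epha8 and Epha10, with at most 29 UMIs each.

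The samples were infarct zone tissue of Sprague Dawley rats, 1 sample after a sham operation and 1 each titled MI_1H, MI_6H and MI_24H. The series describes these as ligation of the left anterior descending coronary artery for 1, 6 and 24 hours, while the treatment labels of the 3 infarct samples also carry the word reperfusion. The sources used here give neither the age and sex of the animals nor their number per sample. Nuclei, not whole cells, were captured, so the values describe nuclear RNA. The 4 samples stand in one matrix as barcode suffixes 1 to 4, and no source used here ties a suffix to a sample. The suffixes are therefore called libraries 1 to 4, no library is called sham or infarct, and no comparison between treatments was made. With 1 library for each, no difference between libraries or classes has a replicate or a test, and every interval given is a 95% interval for counting error alone. Free RNA that enters every droplet adds to all values, and no interval covers it.

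The deposited matrix held 108629374 UMIs. After filtering, 8358, 12733, 14169 and 6030 nuclei remained in libraries 1 to 4, with totals of 15682784, 12512591, 38725716 and 20195106 UMIs and medians of 1298, 600, 1882 and 2247.5 UMIs per nucleus. Of the 41290 nuclei, 28838 fell in 12 classes named from standard heart markers, written with the ending "-like" because the names rest on those markers alone. Library 2 stood apart, since 87.2% of its nuclei could not be named, against 0.383, 5.92 and 7.81% of libraries 1, 3 and 4. Clusters were made without the 65 genes, so no class was formed from their values. The largest cluster of a class often differed between libraries: cardiomyocyte-like nuclei came largely from cluster 4 in library 1, cluster 21 in library 2 and cluster 5 in libraries 3 and 4. For each class and library, the UMIs of a gene were summed over nuclei and are given as CPM, the number in each 1000000 UMIs of the same nuclei. Of the 10 cardiomyocyte markers 9 were found, and no gene carried the symbol Ttn. These 9 summed to between 7785 and 40709 CPM in the 8 splits of the cardiomyocyte-like nuclei. The same markers named the class, so the sums do not check the heart label. Of 48372 barcode sequences, 264 occurred in more than 1 library.

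These genes are best known for steering growing axons. Slits are secreted ligands of Robo receptors, netrins bind Dcc, neogenin and Unc5 receptors, semaphorins signal through plexins, with neuropilins as co-receptors of the secreted class 3 semaphorins, and ephrins bind Eph receptors on touching cells, with signals passing both ways. The same pairs are used by vessels. Ephrin-B2 marks arterial endothelium and EphB4 venous endothelium in development, plexin-D1 restrains sprouting, and semaphorin 3A takes part in shaping lymphatic valves and the innervation of the heart.

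Plxna2, Efnb2, Ephb4 and Plxnd1 were higher together in endothelial-like nuclei and Sema3d in lymphatic endothelial-like nuclei, so the stretches before their RefSeq start sites are shown to let the sequences be compared. RefSeq's table for the build GRCr8 held 50 of the 65 genes. Each line gives the 250 bases that end just before the start, 5′ to 3′ on the gene's strand. Capitals mark GGAAG, 1 form of the core that ETS family factors recognise, on either strand (CTTCC on the other). Other forms of that core were not marked or counted, so a stretch with 0 matches may still hold one. Erg, an ETS factor, is abundant in endothelium.
Plxna2, chr13:108691280-108691529, plus strand: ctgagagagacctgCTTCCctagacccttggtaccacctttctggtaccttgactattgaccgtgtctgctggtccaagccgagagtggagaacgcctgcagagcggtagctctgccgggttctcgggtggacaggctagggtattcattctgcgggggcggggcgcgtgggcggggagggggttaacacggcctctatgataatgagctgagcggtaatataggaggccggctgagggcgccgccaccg
Efnb2, chr16:87484965-87485214, plus strand: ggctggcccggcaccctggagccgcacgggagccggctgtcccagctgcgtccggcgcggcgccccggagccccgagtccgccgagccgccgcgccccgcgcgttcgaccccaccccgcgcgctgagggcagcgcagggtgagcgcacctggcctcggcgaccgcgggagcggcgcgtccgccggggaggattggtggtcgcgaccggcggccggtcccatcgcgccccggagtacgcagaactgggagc
Ephb4, chr12:24988389-24988638, minus strand: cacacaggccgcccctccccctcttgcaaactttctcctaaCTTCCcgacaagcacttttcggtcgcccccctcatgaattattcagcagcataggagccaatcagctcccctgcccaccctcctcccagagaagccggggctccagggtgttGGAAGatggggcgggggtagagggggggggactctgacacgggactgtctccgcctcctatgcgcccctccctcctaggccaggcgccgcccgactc
Plxnd1, chr4:150715188-150715437, minus strand: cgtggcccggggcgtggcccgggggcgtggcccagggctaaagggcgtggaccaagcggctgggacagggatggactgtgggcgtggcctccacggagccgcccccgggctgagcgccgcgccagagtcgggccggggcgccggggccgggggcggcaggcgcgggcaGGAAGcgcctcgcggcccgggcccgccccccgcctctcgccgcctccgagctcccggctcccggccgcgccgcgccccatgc
Sema3d, chr4:23460972-23461221, minus strand: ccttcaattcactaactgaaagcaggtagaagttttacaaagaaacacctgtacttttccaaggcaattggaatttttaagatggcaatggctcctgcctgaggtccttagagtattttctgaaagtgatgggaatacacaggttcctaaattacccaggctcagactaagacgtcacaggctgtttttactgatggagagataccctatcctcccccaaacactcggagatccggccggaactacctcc
Plxna2, Efnb2, Ephb4, Plxnd1 and Sema3d held 1, 0, 2, 1 and 0 matches. Among the members higher in endothelial-like nuclei, 4 of the 7 with an entry held the motif, and among those higher in lymphatic endothelial-like nuclei 5 of 9. These shares, 57.1 and 55.6%, lay near the 63.3% of all 33469 stretches of this length, and 34 of the 50 members with an entry (68%) held it. A match is a run of letters and not a shown binding site.

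A gene was counted as higher in a class when log2(CPM + 10) exceeded that of the pooled remaining classes in that library by at least 1, a 2-fold difference, in every library with at least 50 nuclei of the class. By this rule 32 of the 57 members were higher in at least 1 class, against 17.4% of all 15867 genes with 30 UMIs or more. For the 10 members higher in at least 2 classes, no share over all genes was counted. Counts given below for other settings, such as a higher UMI minimum, also have no share over all genes beside them. Among these 10, Ephb4, Sema6a, Sema6d and Sema3f were higher in both endothelial-like and lymphatic endothelial-like nuclei. Those 32 were 14 of 20 semaphorins, 5 of 9 plexins, 6 of 11 Eph receptors, 2 of 7 ephrins, 1 of 3 Slits, both Robo receptors, 1 of 2 netrins and 1 of 3 Unc5 receptors that could be compared. Because the other classes are pooled by their UMIs, the reference differs between libraries: cardiomyocyte-like nuclei held 53.9, 33.7, 19.8 and 26.3% of the UMIs of named nuclei in libraries 1 to 4, and macrophage-like nuclei 1.27, 1.21, 21.5 and 6.24%.

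**Figure D1:**
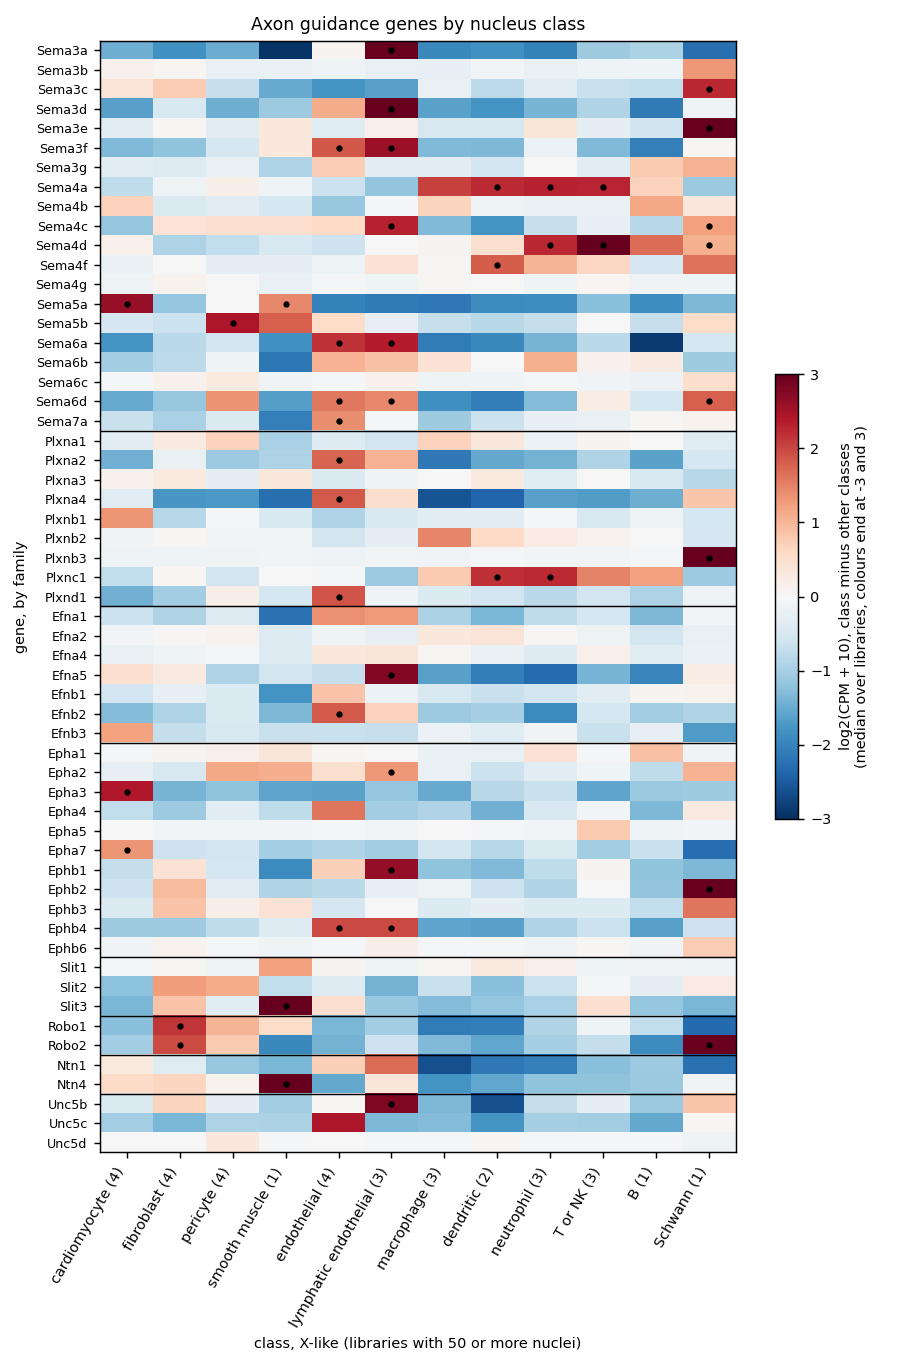
Log2 difference of each of the 57 members (rows, by family) between a class (columns, with the number of libraries used) and all other named classes, as the median over libraries with at least 50 nuclei. Black points mark members counted as higher; they gather in the endothelial and lymphatic endothelial columns, with 9 and 11 members, while the macrophage column has none.

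The highest summed level of all 65 genes was in lymphatic endothelial-like nuclei, at 8756, 6596, 6321 and 7376 CPM in libraries 1 to 4. Endothelial-like nuclei had 4735, 4505, 3488 and 3932 CPM, and Schwann-like nuclei 3754, 3827, 3824 and 2899 CPM. Cardiomyocyte-like nuclei had 1603, 2377, 2074 and 2451 CPM, and macrophage-like nuclei 2036, 1577, 1409 and 1348 CPM. Both endothelial classes were thus above muscle and macrophages in every library. The typical single member was not: in endothelial-like nuclei the median difference was -0.02 (log2) over the 57 members and -0.01 over all genes.

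Endothelial-like nuclei held 9 higher members, Sema6a, Sema3f, Plxna2, Efnb2, Ephb4, Plxnd1, Plxna4, Sema6d and Sema7a, which is 15.8% of the 57 against 1.93% of all genes. Efnb2 encodes ephrin-B2, a membrane-bound ligand of arterial endothelium. It stood at 489.6, 139, 184 and 241 CPM in libraries 1 to 4, against 17.0, 37.7, 37.2 and 76.1 CPM for the other classes. Its ratio ran from 3.16-fold (95% interval 2.92 to 3.43) in library 4 to 28.9-fold (95% interval 25.0 to 33.5) in library 1. Ephb4, its receptor, reached 208, 148, 188 and 238 CPM against 30.2, 44.4, 33.0 and 62.5 CPM. Ephb4 varied less between libraries than Efnb2 did, and for both genes every endothelial value lay above every value of the pooled other classes. The share of all genes without such overlap was not counted.

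Receptors of semaphorins were high in the same nuclei. Plxnd1, the receptor of semaphorin 3E, stood at 513, 636, 295 and 306 CPM in libraries 1 to 4 against 48.0, 178, 65.7 and 100.2 CPM elsewhere. Plxna2 reached 486, 491, 316 and 551 CPM against 68.6, 125, 97.0 and 173 CPM, and its ratio ran from 3.19-fold (95% interval 3.03 to 3.37) in library 4 to 7.08-fold (95% interval 6.51 to 7.71) in library 1. Plxna4 reached 618, 531, 535 and 599.7 CPM against 136, 204, 76.2 and 195 CPM. Plxna4 was lower by the same rule in fibroblast-like and pericyte-like nuclei, so its RNA was unevenly spread over the vessel wall. The transmembrane ligand of both class A plexins, Sema6a, stood at 355, 223, 202 and 203 CPM against 43.7, 46.0, 33.2 and 53.3 CPM, so ligand and receptors were high in one class.

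Sema3f, a secreted repellent that binds neuropilin-2, stood at 45.2, 284, 97.6 and 168 CPM in endothelial-like nuclei and 7.57, 60.9, 17.3 and 42.1 CPM elsewhere. Library 1 was the lowest both in and outside the endothelium. Sema6d reached 213, 370.3, 218 and 293 CPM against 84.5, 108, 47.9 and 99.9 CPM. Sema7a, a membrane-anchored semaphorin that binds integrins and plexin-C1, reached 67.4, 73.2, 38.5 and 52.5 CPM against 9.64, 25.8, 6.42 and 18.5 CPM. Sema6d and Sema7a no longer passed with clusters left unsplit, which left 7 members, and these 2 and Sema3f no longer passed at a minimum of 1000 UMIs per nucleus, where Epha4 joined and 7 members were counted. The nearest outside the rule were Efna1, Unc5c and Epha4. Efna1, which encodes ephrin-A1, was at 33.5, 84.9, 51.6 and 68.7 CPM against 13.2, 31.0, 7.80 and 17.2 CPM and missed the rule in library 1 only. Unc5c, a netrin receptor, was at 137, 21.7, 79.2 and 92.1 CPM against 3.11, 7.23, 5.96 and 9.91 CPM and missed it in library 2 only, where it had 24 UMIs. Epha2, a receptor of ephrin-A1, was at 18.7, 26.2, 13.0 and 14.3 CPM there and 101, 50.7, 14.6 and 42.4 CPM in pericyte-like nuclei. By the same rule turned round, Sema5a and Epha3 were lower in endothelial-like nuclei (2 members, against 1.58% of all genes).

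**Figure D2:**
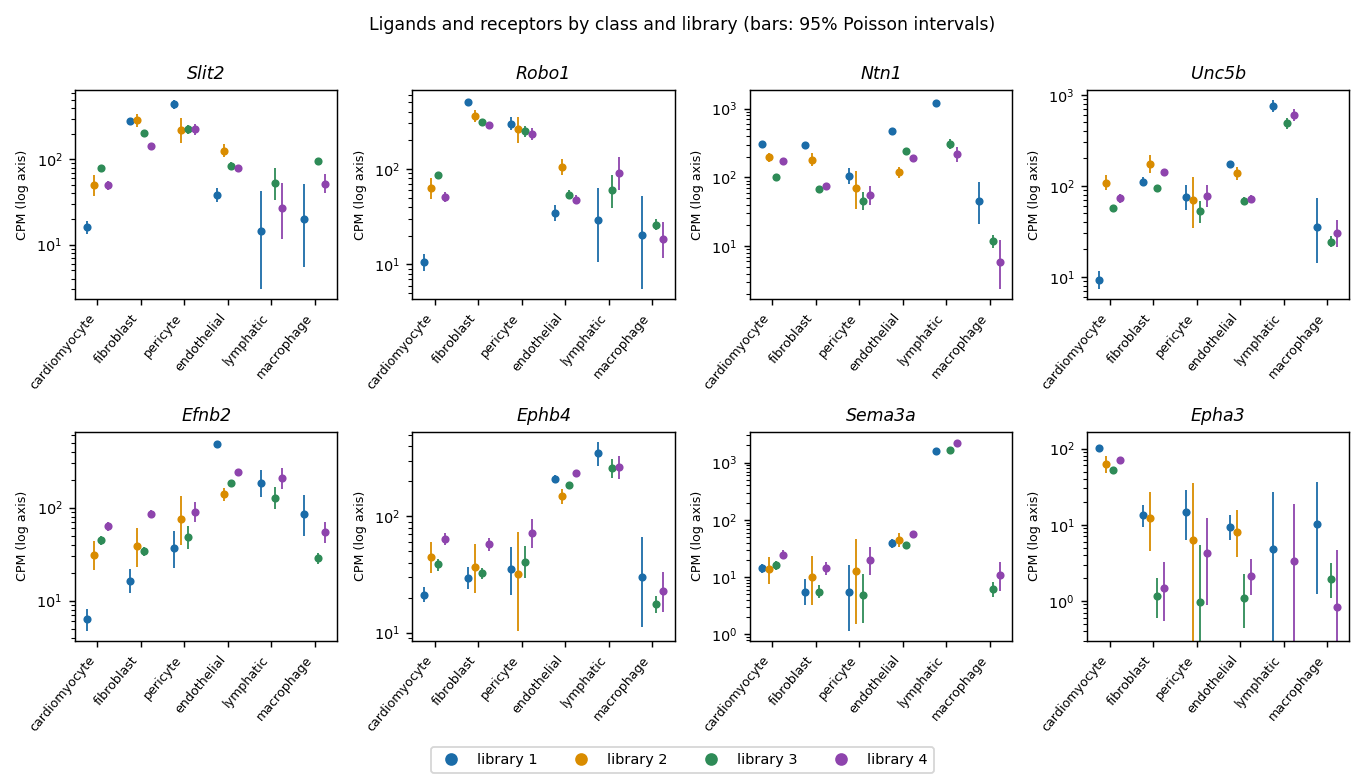
CPM (log axis) of 8 ligands and receptors in 6 classes, 1 point for each library with at least 50 nuclei of the class and bars for 95% Poisson intervals; a value of 0 (Sema3a in macrophage-like nuclei of library 1) is not drawn. Efnb2 and Ephb4 lie highest in the 2 endothelial classes of the 6, Robo1 in fibroblast-like and pericyte-like nuclei, Sema3a and Unc5b in lymphatic endothelial-like nuclei and Epha3 in cardiomyocyte-like nuclei.

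Lymphatic endothelial-like nuclei, counted in libraries 1, 3 and 4, held 11 higher members (19.3% against 1.38% of all genes): Sema3a, Sema3d, Unc5b, Ephb1, Efna5, Sema4c, Sema3f, Sema6a, Sema6d, Ephb4 and Epha2. Library 2 had only 28 such nuclei and was not counted. Sema3a, a secreted ligand of neuropilin-1 and class A plexins, was at 1576, 1647 and 2172 CPM in these 3 libraries and 16.8, 13.9 and 33.0 CPM in the other classes. The ratio ran from 65.9-fold (95% interval 58.9 to 73.7) in library 4 to 119-fold (95% interval 106 to 133) in library 3. In library 2 the 28 nuclei gave 1211 CPM from 56 UMIs, so the uncounted library also had a high value. The same gene reached only 38.7, 45.2, 36.6 and 56.5 CPM in the 4 libraries' endothelial-like class.

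Sema3d, a second class 3 semaphorin, was at 1469, 654 and 703 CPM in lymphatic nuclei of libraries 1, 3 and 4 against 52.6, 25.5 and 51.7 CPM elsewhere. The netrin receptor Unc5b was at 756, 487 and 602 CPM against 65.8, 60.9 and 83.9 CPM. Efna5, which encodes the ligand ephrin-A5, was at 189, 240.2 and 175 CPM against 16.6, 26.7 and 37.3 CPM. The higher members of these nuclei thus included secreted and tethered ligands as well as a receptor. Ephb1 reached 169.7, 126 and 131 CPM against 13.3, 11.7 and 25.5 CPM, and Sema4c 238, 181 and 155 CPM against 39.2, 28.5 and 40.4 CPM. Epha2, at 38.8, 34.3 and 37.0 CPM from 8, 15 and 11 UMIs, was the thinnest of the 11. Ephb4, Sema6a, Sema6d and Sema3f were higher both here and in endothelial-like nuclei. Efnb2, in contrast, was at 184, 128 and 208 CPM against 109.6, 62.1 and 136 CPM and was not counted, so the receptor of the ephrin-B2 and EphB4 pair passed without the ligand. Sema3c, Sema5a, Epha3 and Slit2 were lower in these nuclei (4 members, against 2.04% of all genes).

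When the endothelial nuclei alone were clustered again, 45 members had 30 UMIs or more, and subclasses were compared with the other endothelial nuclei of the same library. Endocardial-like nuclei, the lining of the heart chambers, held Slit3 and Slit2 in all 4 libraries (2 members, against 0.934% of all genes). Slit3 stood at 271, 244, 219 and 209.6 CPM there and at 1.94, 20.2, 10.8 and 8.49 CPM in the other endothelial nuclei. Slit2 stood at 201, 348, 237 and 387 CPM against 25.9, 72.3, 34.5 and 15.03 CPM. The rule itself requires both secreted Robo ligands to be higher in each library. No endocardial-like value overlapped one from the other endothelial nuclei, and the share of all genes without overlap was not counted. The libraries compare different sub-clusters: 1 held 131 nuclei of library 1, and the other 73, 494 and 248 nuclei of libraries 2 to 4. Slit3 was among the 10 leading genes of 1 of the 2 endocardial-like sub-clusters, though it was not used to form them.

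Arterial-like nuclei held Sema3g and Epha4 in libraries 1, 3 and 4 (2 members, against 0.888% of all genes). Sema3g, a secreted semaphorin of arterial endothelium, was at 114, 83.4 and 115 CPM from 14, 20 and 69 UMIs, against 7.22, 4.88 and 7.42 CPM. Epha4, a receptor for both kinds of ephrin, was at 457, 275 and 275 CPM against 139, 40.3 and 40.3 CPM. That both stood above the other endothelial nuclei in each of the 3 libraries is required by the rule. Efnb2 was at 718, 734 and 785 CPM against 461, 160.1 and 191 CPM: the difference was under 2-fold in library 1, where capillary-like nuclei held 483 CPM, and larger in libraries 3 and 4. Ephb4 was lower in arterial-like than in other endothelial nuclei, 73.4, 108 and 152 CPM against 222, 195 and 246 CPM, so the ligand and the receptor leaned opposite ways. No venous-like cluster was named.

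Lymphatic nuclei held 6 members in this comparison (against 1.53% of all genes), Sema3a, Efna5, Sema3d, Unc5b, Ephb1 and Sema4c, all of which also stood out against the whole heart. Sema3a was at 1601, 1652 and 2241 CPM in libraries 1, 3 and 4 against 39.9, 37.1 and 57.5 CPM in the other endothelial nuclei. Unc5b, an artery and tip cell receptor in development, was also at 196, 329.6 and 222 CPM in arterial-like nuclei but at 18.7, 84.6, 38.4 and 18.0 CPM in endocardial-like nuclei of libraries 1 to 4. Capillary-like nuclei reached 50 in library 1 only, where 3 members passed (against 1.41% of all genes). There Unc5c was at 167 CPM against 19.6 CPM, Sema7a at 77.9 CPM against 26.5 CPM, and Efnb1 at 27.5 CPM against 6.91 CPM. In libraries 2 to 4 the endothelial nuclei left without a subclass name held Unc5c at 22.9, 109 and 122 CPM. None of the 3 capillary calls held when the axon guidance genes were allowed into the clustering: Unc5c and Efnb1 turned round, to -1.60 and -0.25 (log2), and Sema7a went from 1.27 to 0.59.

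**Figure D3:**
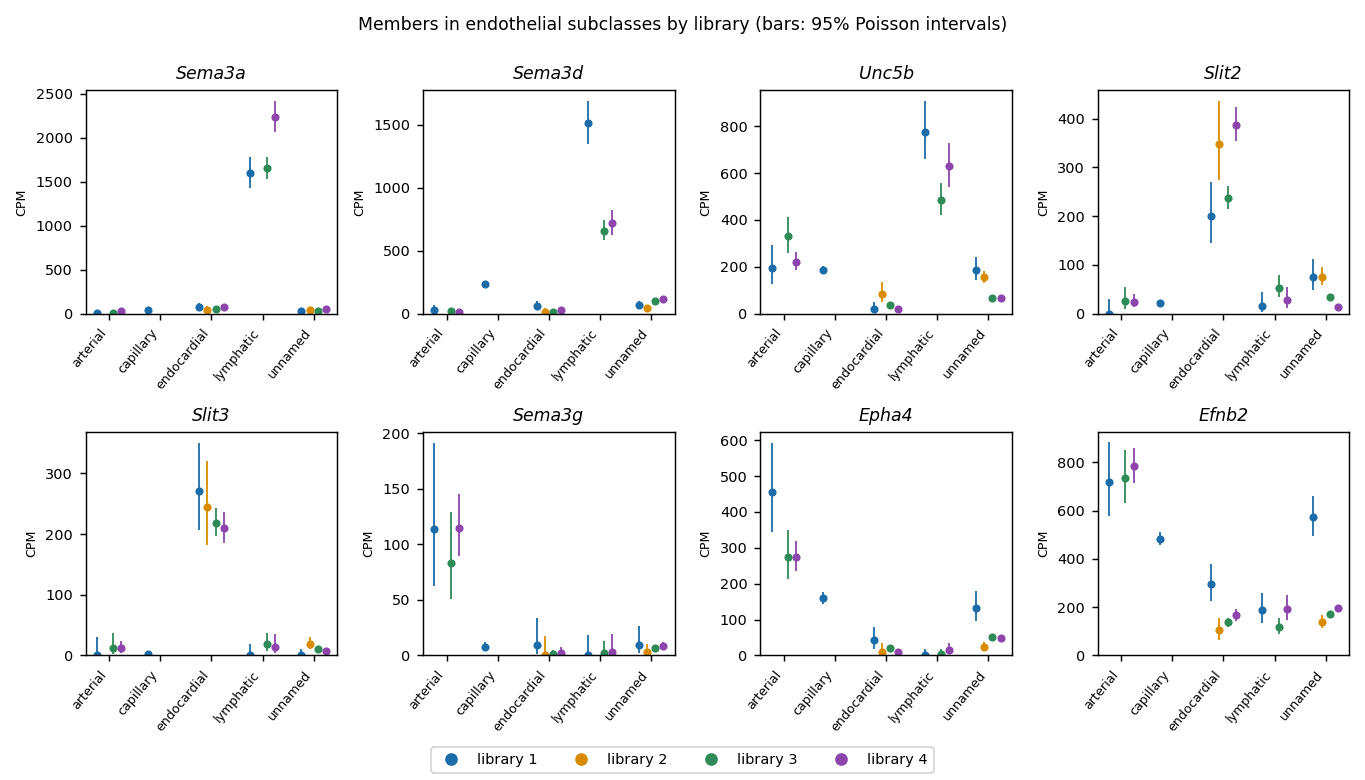
CPM of 8 members in endothelial subclasses, 1 point for each library with at least 50 nuclei of the subclass and bars for 95% Poisson intervals. Sema3a, Sema3d and Unc5b peak in lymphatic nuclei, Slit2 and Slit3 in endocardial-like nuclei of all 4 libraries, and Sema3g and Epha4 in arterial-like nuclei of libraries 1, 3 and 4.

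Fibroblast-like nuclei held 2 higher members, Robo1 and Robo2 (3.51% against 1.49% of all genes). Robo1, a Slit receptor, was at 506, 358, 307 and 289.7 CPM in libraries 1 to 4 against 30.6, 98.4, 62.8 and 57.5 CPM in the other classes, a ratio from 3.64-fold (95% interval 2.99 to 4.43) in library 2 to 16.6-fold (95% interval 14.8 to 18.6) in library 1. Robo2 was at 90.2, 106, 59.6 and 83.6 CPM against 9.30, 21.2, 13.4 and 13.3 CPM. That both were above the pooled other classes in each library is required by the rule. In library 1 Robo2 was higher still in Schwann-like nuclei, at 243 CPM. Robo2 no longer passed at a minimum of 1000 UMIs per nucleus, where 1 member was left. The ligand Slit2 was at 281, 289, 205 and 145 CPM in the same nuclei and at 444, 222, 226 and 226 CPM in pericyte-like nuclei, and narrowly missed the rule in fibroblasts. Plxna4, Sema3a and Sema3f were lower in fibroblast-like nuclei (3 members, against 2.06% of all genes).

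Pericyte-like nuclei held 1 higher member, Sema5b, a transmembrane semaphorin (1.75% against 0.870% of all genes). Sema5b was at 93.6, 31.7, 67.1 and 79.2 CPM in libraries 1 to 4 from 51, 5, 69 and 56 UMIs, against 4.37, 5.55, 4.37 and 6.65 CPM. The ratio ran from 5.71-fold (95% interval 1.64 to 16.3) in library 2 to 21.4-fold (95% interval 14.6 to 31.4) in library 1. Robo1 was at 297, 259.8, 248 and 233 CPM in these nuclei and did not pass. Plxna4 and Sema3a were lower (2 members, against 0.681% of all genes). Without library 2, or at 1000 UMIs per nucleus, Sema6d joined, which made 2 members.

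Smooth muscle-like nuclei reached 50 nuclei in library 4 only, where 3 members passed (5.26% against 1.54% of all genes). The basement membrane netrin Ntn4 was at 495 CPM there, with a ratio of 13.0-fold (95% interval 9.85 to 16.8). Slit3 was at 407 CPM, with a ratio of 10.4-fold (95% interval 7.71 to 13.9). All 3 members were picked for a 2-fold difference, and their intervals also lay above 2-fold. Sema5a was at 344 CPM, with a ratio of 2.88-fold (95% interval 2.08 to 3.89). In library 1, where 31 such nuclei were found, Slit3 was at 1246 CPM from 55 UMIs, so its high level was not limited to library 4. In library 4, 17 members were lower, against 13.0% of all genes.

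Cardiomyocyte-like nuclei held 3 higher members, the receptors Epha3 and Epha7 and the ligand Sema5a (5.26% against 2.55% of all genes). Epha3 was at 101, 62.3, 52.4 and 69.8 CPM in libraries 1 to 4 against 11.4, 11.9, 1.51 and 1.99 CPM in the other classes, and its ratio ran from 5.24-fold (95% interval 3.23 to 8.75) in library 2 to 35.0-fold (95% interval 23.8 to 53.4) in library 4. Epha7 was at 60.3, 21.4, 18.6 and 28.1 CPM against 13.2, 3.47, 2.75 and 3.99 CPM. Sema5a, a semaphorin with thrombospondin repeats, was at 185, 245, 267 and 369 CPM against 74.8, 45.6, 24.5 and 32.0 CPM. The rule itself requires all 3 to exceed the pooled other classes in each library. In library 1 Sema5a was higher in pericyte-like nuclei, at 220.2 CPM. No member was lower in cardiomyocyte-like nuclei, against 0.113% of all genes. Epha7 did not pass when the axon guidance genes were allowed into the clustering, which left 2 members.

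Efnb3 and Plxnb1 were highest in cardiomyocyte-like nuclei of every library at low levels. Efnb3, which encodes ephrin-B3, was at 40.6, 13.6, 7.09 and 17.5 CPM there and 1.39, 0.496, 0.516 and 1.78 CPM elsewhere. Plxnb1, the receptor of semaphorin 4D, was at 26.9, 31.2, 4.87 and 12.0 CPM against 2.08, 2.98, 0.275 and 0.641 CPM. Both fell short of the rule in library 3 only, since 10 is added to these small values, and both passed with a pseudocount of 1 CPM, which made 5 members. Ephrin-A5, a ligand of EphA3 and EphA7, was highest in lymphatic nuclei of libraries 1, 3 and 4 and at 22.5, 55.5, 31.1 and 59.0 CPM in cardiomyocyte-like nuclei themselves.

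Among white blood cells Sema4a, Sema4d, Sema4f and Plxnc1 were each higher in at least 1 class, while Sema4b, Sema4c and Sema4g were higher in none of these classes and Sema4c was lower in dendritic-like nuclei. Sema4d, which is known as CD100 on T cells, was at 536, 261 and 315 CPM in T or NK-like nuclei of libraries 1, 3 and 4 against 29.0, 30.8 and 22.5 CPM. Sema4a, which acts in the contact of T cells with antigen-presenting cells, was at 309.8, 222 and 204 CPM against 9.33, 71.1 and 34.0 CPM. These were the 2 higher members of the class (3.51% against 1.44% of all genes). The receptor of Sema4d, Plxnb1, had no UMI in T or NK-like nuclei of any library, which allows up to 25.1, 124, 3.18 and 13.3 CPM in libraries 1 to 4, and was highest in cardiomyocyte-like nuclei.

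Neutrophil-like nuclei, counted in libraries 2, 3 and 4, held 3 higher members (5.26% against 2.14% of all genes), Sema4a, Sema4d and Plxnc1. Sema4d was at 287, 116 and 158 CPM there against 43.8, 34.5 and 25.2 CPM. Plxnc1, the receptor of semaphorin 7A, was at 117, 67.5 and 175 CPM against 16.9, 25.5 and 15.4 CPM, from 9, 71 and 20 UMIs. Dendritic-like nuclei, counted in libraries 3 and 4, held Plxnc1, Sema4a and Sema4f (5.26% against 2.39% of all genes). Plxnc1 was at 117 and 138 CPM there against 24.8 and 15.5 CPM. Sema7a, its ligand, was counted as higher in endothelial-like nuclei and Plxnc1 was not. Plxnc1 was not absent there, with at least 30 UMIs in endothelial-like nuclei of library 3. Without library 2 it also joined the members higher in 1 endothelial subclass. Sema4f rested on 37 and 3 UMIs. Lower members numbered 8 in neutrophil-like nuclei, against 2.17% of all genes, 15 in dendritic-like nuclei (5.02%) and 3 in T or NK-like nuclei (0.857%). Ntn1 was among the lower members of all 3.

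Macrophage-like nuclei, counted in libraries 1, 3 and 4, held no higher member, against 2.45% of all genes, and 12 lower ones (21.1% against 4.36%). The 12 were Ntn1, Plxna2, Sema6a, Sema5a, Sema3a, Robo1, Ntn4, Epha3, Sema3d, Sema7a, Robo2 and Ephb1. Ntn1 was at 45.3, 11.8 and 5.88 CPM there against 337, 113 and 149 CPM in the other classes. The nearest to being higher were Plxnb2, a receptor of class 4 semaphorins, and Sema4a, and both missed the rule in library 3 only. Plxnb2 was at 191, 272 and 249.7 CPM against 35.2, 136 and 83.9 CPM. Sema4a was at 227, 126 and 149 CPM against 8.86, 61.1 and 28.5 CPM and passed with a pseudocount of 1 CPM or with clusters left unsplit (1 member each). The upper estimate of free RNA is the summed profile of a library's named nuclei. It is scaled until the summed markers of unrelated classes would be used up, and negative values are set to 0. A gene low enough against that profile thus becomes 0 by arithmetic. With this estimate subtracted, 3 members passed in macrophage-like nuclei, Plxna1, Plxnb2 and Sema4a. B-like nuclei, counted in library 3 alone, held none, against 0.781% of all genes, and 20 lower ones (14.3%).

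Schwann-like nuclei, the glia of cardiac nerves, reached 50 nuclei in library 1 only, where 8 members passed (14% against 3.69% of all genes): Ephb2, Sema3e, Plxnb3, Robo2, Sema3c, Sema6d, Sema4c and Sema4d. Ephb2 was at 243 CPM from 31 UMIs against 4.57 CPM. At 1000 UMIs per nucleus 5 passed, without Plxnb3, Sema4c and Sema4d. Sema4c and Sema4d also did not pass with free RNA subtracted, where Plxna4 joined and 7 passed, and 13 passed with no minimum UMI count. Another 12 were lower there as counted, against 9.93% of all genes. In libraries 2, 3 and 4, with 33, 49 and 44 nuclei, Ephb2 was at 281, 176 and 114 CPM. Sema3e, the ligand of plexin-D1, was at 165, 102, 448 and 212 CPM in libraries 1 to 4 from 21, 4, 61 and 28 UMIs, against 0.966, 4.66, 3.54 and 3.12 CPM. Sema3e was thus high in Schwann-like nuclei of all 4 libraries while its receptor gene Plxnd1 was highest in endothelial-like nuclei of all 4. Plxnb3 had 19, 4, 5 and 8 UMIs here in libraries 1 to 4 and at most 2 in any other named class of a library. In library 1 it was at 149 CPM against 0.193 CPM. Sema3c, a secreted ligand used by the cardiac neural crest, was at 509 CPM in library 1 against 99.2 CPM.

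Ntn1, the gene of netrin-1, passed the rule in no class. It stood at 303, 196, 103 and 171 CPM in cardiomyocyte-like nuclei of libraries 1 to 4. In fibroblast-like nuclei it was at 295, 181, 67.0 and 73.8 CPM and in endothelial-like nuclei at 472, 118, 243 and 194 CPM. In lymphatic nuclei it was at 1193, 307 and 219 CPM in libraries 1, 3 and 4, above every other class with 50 nuclei. Within the endothelium of libraries 1 to 4, Ntn1 was at 1431, 169, 440.0 and 441 CPM in endocardial-like nuclei against 453, 112, 187 and 146 CPM. Of its receptors, Unc5b was highest in lymphatic nuclei of libraries 1, 3 and 4, and Unc5c in endothelial-like nuclei of every library. Dcc was near 0, at 0.711, 2.92, 1.53 and 1.40 CPM in cardiomyocyte-like nuclei of libraries 1 to 4 from 6, 3, 11 and 7 UMIs.

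Other genes of the pathway were taken from 2 lists. Of 22 co-receptors and alternative ligands, 21 were measured well enough. Of these, 1 was higher in cardiomyocyte-like nuclei (against 2.55% of all genes), 1 in endothelial-like (1.93%), 3 in lymphatic (1.38%), 1 in pericyte-like (0.870%), 1 in smooth muscle-like (1.54%) and 3 in Schwann-like nuclei (3.69%), and none in the other 6 classes. Neo1, which encodes the netrin receptor neogenin, was at 123, 125, 62.4 and 83.7 CPM in cardiomyocyte-like nuclei against 43.0, 43.6, 25.1 and 22.2 CPM. Neo1 was also the higher gene of smooth muscle-like nuclei. The 2 neuropilins, co-receptors of class 3 semaphorins, differed between the endothelial classes. Nrp2 was at 1513, 1306 and 1046 CPM in lymphatic nuclei of libraries 1, 3 and 4 against 123, 179 and 219 CPM elsewhere. Nrp1 was lower there, at 150.3, 112 and 104 CPM against 949.9, 546 and 688 CPM, and was at 1667, 942, 1041 and 949.7 CPM in endothelial-like nuclei of libraries 1 to 4. The class with the highest Sema3a thus had less RNA of Nrp1, the co-receptor of its product, than the pooled other classes had. This was not particular to that class. Nrp1 was also lower by the rule in smooth muscle-like, dendritic-like, neutrophil-like, B-like and Schwann-like nuclei. Adgrl3, a latrophilin that binds Unc5 and Flrt proteins, was at 1549, 646, 1144 and 1012 CPM in pericyte-like nuclei against 33.5, 36.0, 28.3 and 31.3 CPM. Adgrl3 was also higher in Schwann-like nuclei of library 1. L1cam and Ptprz1 were higher in Schwann-like nuclei of library 1, where L1cam was at 259 CPM from 33 UMIs against 0.451 CPM. Kdr, the third lymphatic and the only endothelial call, was itself among the markers used for naming.

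Of 36 intracellular effectors, 35 were measured well enough. Of these, 2 were higher in cardiomyocyte-like nuclei (against 2.55% of all genes), 5 in Schwann-like (3.69%), 3 in smooth muscle-like (1.54%) and 2 in dendritic-like nuclei (2.39%). Another 1 each was higher in fibroblast-like (1.49%), endothelial-like (1.93%), macrophage-like (2.45%), neutrophil-like (2.14%), T or NK-like (1.44%) and B-like nuclei (0.781%), and none in lymphatic or pericyte-like nuclei. A single gene of 35 lies near these shares. Enah, an actin regulator downstream of Robo and netrin receptors, was at 505, 972, 890.5 and 1051 CPM in cardiomyocyte-like nuclei against 102, 150.3, 67.7 and 64.5 CPM. It was lower by the rule in every other class except smooth muscle-like nuclei. Srgap3, a GTPase-activating protein that binds Robo, was at 502, 291 and 452 CPM in T or NK-like nuclei of libraries 1, 3 and 4 against 46.0, 53.4 and 38.0 CPM. Schwann-like nuclei of library 1 also held Srgap3 as higher. Chn1, which acts downstream of EphA4, was at 435, 177, 321 and 406 CPM in endothelial-like nuclei against 97.6, 69.7, 55.4 and 114 CPM. These 2 lists were not left out of the clustering, so they describe classes that they helped to form.

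Between libraries, a member was counted when log2(CPM + 10) in the highest library exceeded that in the lowest by at least 1, with 30 UMIs in the highest, within 1 class. The background was high: 26 of 39 members passed in cardiomyocyte-like nuclei against 41.1% of all genes, 15 of 31 in fibroblast-like (34.2%), 23 of 36 in endothelial-like (32.7%), 13 of 22 in pericyte-like (48.1%) and 4 of 14 in macrophage-like nuclei (31.6%). In lymphatic nuclei 7 of 18 passed (39.0%), in T or NK-like nuclei 10 of 12 (42.6%), in neutrophil-like nuclei 3 of 5 (46.2%) and in dendritic-like nuclei 0 of 7 (9.95%). The median span of the members was 1.2 (log2) in cardiomyocyte-like nuclei, against 0.86 over all genes, and 1.16 against 0.74 in endothelial-like nuclei. Libraries differ in sample, depth, free RNA and the clusters that make up a class, and these cannot be told apart.

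In cardiomyocyte-like nuclei the widest spans were in genes that are high in other classes. Plxnd1 was at 8.41, 140.2, 62.7 and 81.3 CPM in libraries 1 to 4, and Unc5b was at 9.24, 108, 56.4 and 72.8 CPM. In both, library 2 was the highest and library 1 the lowest. Plxna2 was at 21.1, 102, 97.6 and 148 CPM. Sema4a was at 2.01, 20.4, 48.7 and 21.7 CPM. These 2 were highest in libraries 4 and 3, and again lowest in library 1. Marker lists of other classes did not all move the same way in cardiomyocyte-like nuclei of libraries 1 to 4. The 9 endothelial markers found of 10, all with UMIs in each library, summed to 173, 783, 864 and 1659 CPM. Over the 10 macrophage markers, all with UMIs in each library, the sum was 44.1, 1756, 3929 and 1431 CPM. The 10 fibroblast markers summed to 267, 1141, 3853 and 1887 CPM. These lists were lowest in library 1, while the 10 pericyte markers were highest there, at 1054.5, 941, 608 and 649 CPM. One split of the class with a median of 7114 UMIs, 161 of its 225 nuclei from library 4, held 3555 CPM of endothelial markers. Another, with a median of 9011 UMIs and 357 of its 469 nuclei from library 3, held 5383 CPM of fibroblast and 3527 CPM of macrophage markers. Without that split of highest UMI count 26 members again spanned 2-fold, of which 24 were the same. Plxnc1 and Robo2 no longer passed, and Epha2 and Sema5a joined. The upper estimate of free RNA took 43.9, 58.0, 67.7 and 63.5% of cardiomyocyte-like UMIs. With it subtracted, Plxnd1 and Sema4a were at 0 CPM in all 4 libraries. Plxna2 was then at 0, 0, 18.0 and 0 CPM, and Unc5b at 0, 63.9, 35.3 and 37.2 CPM. After subtraction 9 members passed in place of 26, and 7 of the 9 were among the 26. The share of all genes after subtraction was not counted, so the drop cannot be called particular to the members. How much of these spans is free RNA or mixed nuclei was not tested.

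Other members were highest in library 1. Epha7 was at 60.3, 21.4, 18.6 and 28.1 CPM in cardiomyocyte-like nuclei of libraries 1 to 4. Efnb3 was at 40.6, 13.6, 7.09 and 17.5 CPM. The order differed for Sema5a, which was lowest in library 1, at 185, 245, 267 and 369 CPM. Ntn4 was at 208, 87.6, 51.2 and 63.2 CPM, so the basement membrane netrin was more than 2-fold higher in library 1 than in each of the other 3. With free RNA subtracted, Ntn4 was at 212, 118, 74.5 and 96.0 CPM and Efnb3 at 51.8, 24.1, 17.6 and 35.7 CPM, both highest in library 1 as before. Epha7 was then at 73.1, 35.6, 44.0 and 55.8 CPM and its span no longer passed. Epha3 was at 101, 62.3, 52.4 and 69.8 CPM as counted and 126, 102, 134 and 148 CPM after subtraction, so its order of libraries changed.

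**Figure D4:**
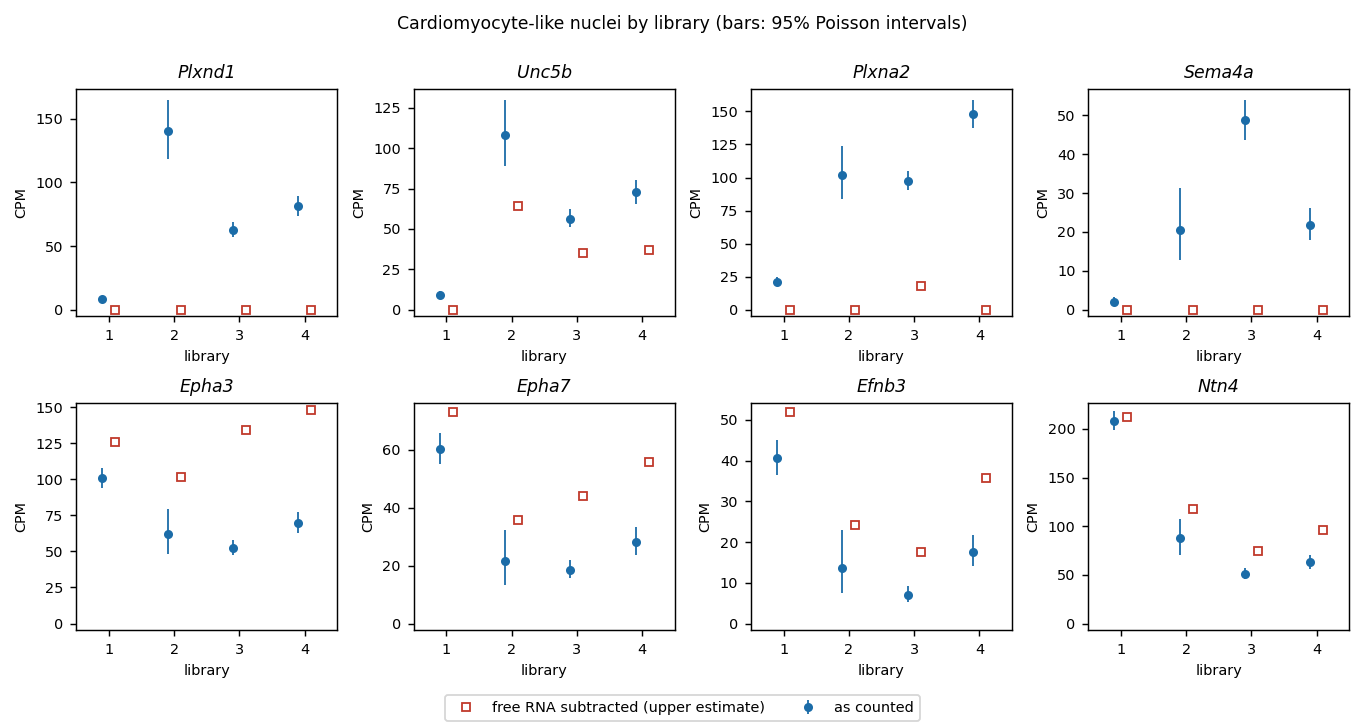
CPM of 8 members in cardiomyocyte-like nuclei by library, as counted (circles, bars for 95% Poisson intervals) and after subtracting the upper estimate of free RNA (squares). Negative values after subtraction are set to 0. After subtraction Plxnd1 and Sema4a lie at 0 in every library, Plxna2 in all but library 3 and Unc5b in library 1, while Efnb3 and Ntn4 keep their highest value in library 1.

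In fibroblast-like nuclei Ntn4 and Ntn1 had the widest spans, and both were highest in library 1. Ntn4 was at 299, 75.3, 66.9 and 55.0 CPM in libraries 1 to 4, and at 325, 85.3, 104 and 69.1 CPM with free RNA subtracted. Ntn1 was at 295, 181, 67.0 and 73.8 CPM, and at 281, 203, 27.7 and 0 CPM after subtraction. Ntn4 was also highest in library 1 in endothelial-like nuclei, at 44.8, 24.4, 26.4 and 11.8 CPM. Efna5 was lowest in library 1, at 12.2, 26.5, 52.1 and 71.8 CPM as counted and 10.3, 14.4, 82.5 and 107 CPM after subtraction. Sema6d, a transmembrane semaphorin of heart development, was lowest in library 3, at 161, 89.5, 37.0 and 83.6 CPM. The fibroblast-like nuclei of library 1 were 99.0% cluster 0, those of library 2 79.8% one part of cluster 15 and those of libraries 3 and 4 74.5 and 41.9% cluster 9, so the spans compare different clusters. Macrophage markers in fibroblast-like nuclei summed to 97.6, 2405, 3706 and 1932 CPM, and cardiomyocyte markers to 2675, 2810, 937 and 1392 CPM. Endothelial markers summed to 347, 918, 428 and 1334 CPM there, and pericyte markers to 632, 551, 397 and 446 CPM. The part of other classes' RNA in these spans was not tested.

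In endothelial-like nuclei the widest spans were those of Sema3f, Epha4, Unc5c and Sema3d, and library 2 stood at one end of each. Sema3f was highest there, as given above. Epha4 was at 161, 25.3, 51.7 and 61.3 CPM in libraries 1 to 4 and Sema3d at 197, 38.8, 75.3 and 91.8 CPM. These 2 and Unc5c were lowest in library 2, whose endothelial-like nuclei were 80.5% one part of cluster 15, while cluster 2 held 83.5% of those of library 1 and cluster 11 76.8 and 75.8% of those of libraries 3 and 4. Of the 23 members that passed, 11 passed without library 2, Efnb2 and Ntn1 among them. For both of these genes library 1 was the highest. Macrophage markers summed to 174, 2661, 4930 and 1522 CPM in endothelial-like nuclei, and their part in these spans was not tested.

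In pericyte-like nuclei Epha2 was at 101, 50.7, 14.6 and 42.4 CPM in libraries 1 to 4, and Sema5a was at 220.2, 57.0, 101 and 84.8 CPM. Both were highest in library 1. Sema3c was at 33.0, 108, 163 and 70.7 CPM. Plxna2 was at 53.2, 101, 70.0 and 214 CPM. These 2 were lowest in library 1, and with free RNA subtracted Plxna2 was at 0 CPM in all 4 libraries and Sema3c at 0, 22.9, 0 and 0 CPM. The upper estimate of free RNA took 37.9, 69.7, 87.9 and 84.0% of pericyte-like UMIs, and with it subtracted 6 members passed in place of 13. No share of all genes was counted after subtraction. With no minimum UMI count for a gene, which admits genes with few UMIs, 27 passed, and no share of all genes was counted there either.

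In macrophage-like nuclei, counted in libraries 1, 3 and 4, Plxna4 was at 191, 23.6 and 33.6 CPM and Plxnd1 at 363, 82.7 and 129 CPM. Both receptors were highest in library 1. Sema3c was at 45.3, 287 and 116 CPM, and Slit2 at 20.2, 95.8 and 52.1 CPM. These ligands were highest in library 3. Fibroblast markers summed to 494, 3358 and 1982 CPM in macrophage-like nuclei of libraries 1, 3 and 4. Endothelial markers summed to 726, 483 and 641 CPM there, cardiomyocyte markers to 3900, 1576 and 2263 CPM and pericyte markers to 171, 140 and 197 CPM. With the upper estimate of free RNA subtracted, 3 of the 4 members passed, without Plxna4. The part of other classes' RNA in these spans was not tested. In library 1, 70.4% of the macrophage-like nuclei were cluster 13, with Stab1 and Cd163 among its leading genes, and in library 3 92.2% were cluster 7, so the libraries differed in the kind of macrophage-like nucleus as well. At 1000 UMIs per nucleus 7 members passed in place of 4, and 2 of the 4 were among them. With no minimum UMI count, which admits genes with few UMIs, 16 passed. No share of all genes was counted in these settings.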

How the data were processed

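Nuclei of 4 rat heart samples were profiled by droplet sequencing of the 3' ends of nuclear RNA (10x Chromium, kit version 3, NovaSeq), per the labels. The authors deposited 1 matrix of raw UMI counts per gene and barcode, and the file headers give cellranger 5.0.1 as its maker. The submitters' processing notes name Cell Ranger 6.1.1, Seurat and rn7, which differ from the header, so the build of the counts is not settled and no coordinate is taken from them.

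From these counts, nuclei were kept that had 500 UMIs and 300 genes or more and a mitochondrial share of 10% or less. Doublets were scored with scrublet in each library and the highest scores removed, at 0.8% per 1000 nuclei. Counts were scaled to 10000 per nucleus, and 2000 variable genes without the 65 members gave 30 principal components, 15 neighbours and Leiden clusters at resolution 1 (scanpy 1.11.5), with no integration of libraries. Mural and unnamed clusters were split once at resolution 0.5, and endothelial nuclei were clustered again at 0.5. A cluster took a name where at least 3 markers of a class were 2-fold higher and seen in 5% of its nuclei. Its score also had to lie 0.5 above that of the next class that was not related. No gap was required between endothelial and lymphatic endothelial, between pericyte and smooth muscle, or among macrophage, dendritic and neutrophil. Among endothelial subclasses the gap applied to all. The naming rule and the splits were set after clusters were seen. Shallow nuclei and missing symbols limit the names, and the reads of overlapping genes cannot be separated in the counts.

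Values are CPM per class and library, with exact Poisson intervals and, for ratios, exact binomial (Clopper-Pearson) ones. No test was made, since each group has 1 sample. The counting steps were tested on simulated data. Named members are, per class, up to 4 with the largest smallest difference, up to 4 with the widest span between libraries and up to 3 per endothelial subclass, with 30 of textbook interest and 2 per pathway list; others named were chosen after their values were seen. Members, lists and rules were chosen with earlier results of these data known. Alternatives were a minimum of 1000 UMIs, another scaling, a pseudocount of 1 CPM, subtraction of free RNA, members allowed in the clustering, no minimum for a gene and, added after the data were seen, unsplit clusters, no library 2 and no cardiomyocyte-like split of highest UMI count.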

Additional observations from a re-analysis of the deposited data

Results flagged for a closer look

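Nuclei that no marker list could name also held UMIs of the 65 axon guidance genes, and the class comparisons did not use them. In library 2 the 11110 unnamed nuclei held a summed level of 2990 CPM, with a 95% Poisson interval of 2955 to 3025. In library 3 the 839 unnamed nuclei held 2201 CPM (2143 to 2260), and in library 4 the 471 unnamed nuclei held 2553 CPM (2461 to 2647). They are listed because these nuclei entered no comparison and the sums exceed the 0.317, 1.21 and 2.62 CPM that a count of 0 would allow, as any sum over so many genes would. Which share of them is free RNA was not measured. The 32 unnamed nuclei of library 1 held 2863 CPM (2252 to 3589).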

How the results depend on the processing

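No paired analysis was possible because each group has 1 sample and no barcode suffix is tied to a sample. Shares over all genes were counted for the main setting alone, so the counts below have none beside them. With median-of-ratios scaling all 13 counts stayed within 1.5 times. At 1000 UMIs per nucleus, 1 member was higher in fibroblast-like, 2 in pericyte-like and 5 in Schwann-like nuclei, and 27 fibroblast and 7 macrophage members spanned 2-fold between libraries. With a pseudocount of 1 CPM, 5 members were higher in cardiomyocyte-like, 5 in fibroblast-like, 2 in pericyte-like and 1 in macrophage-like nuclei. With free RNA subtracted, the counts were 5, 6, 14, 5 and 3 in cardiomyocyte-like, fibroblast-like, endothelial-like, pericyte-like and macrophage-like nuclei, and 9 cardiomyocyte and 6 pericyte members spanned 2-fold. With members in the clustering, 2 were higher in pericyte-like nuclei, and the capillary differences of Unc5c and Efnb1 reversed to -1.60 and -0.25 (log2). With no minimum for a gene, 6 were higher in smooth muscle-like and 13 in Schwann-like nuclei, and 27 pericyte and 16 macrophage members spanned 2-fold. With clusters unsplit, 2 were higher in pericyte-like and 1 in macrophage-like nuclei. Without library 2, 2 were higher in pericyte-like nuclei and 11 endothelial members spanned 2-fold. Apart from the smaller number of genes, nuclei or libraries in some settings, the cause was not tested. No value could be had for smooth muscle at 1000 UMIs or for endothelial subclasses with free RNA subtracted. Depth limits small classes: a count of 0 allows up to 38.1 CPM in B-like nuclei of library 3 and 23.5 CPM in Schwann-like nuclei of library 1, against 0.356 CPM in cardiomyocyte-like nuclei of library 1.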

Other observations

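Most unnamed nuclei of library 2, 9828 of 11110, formed 1 cluster with a median of 570 UMIs, and its leading genes mixed mitochondrial transcripts with S100a8, S100a9 and Laptm5. Members that mark different classes elsewhere were found in it together. Plxnd1, highest in endothelial-like nuclei, was at 308 CPM (95% Poisson interval 294 to 323). Robo1, highest in fibroblast-like nuclei, was at 209 CPM (198 to 221). Sema3c was at 202 CPM (190 to 213) and Slit2 at 136 CPM (127 to 146). The largest unnamed cluster of libraries 3 and 4, with haemoglobin transcripts among its leading genes, held Plxna2 at 143 CPM (110 to 182) and 190 CPM (140 to 251).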
